A study of Homo sapiens with 12 samples.

Results

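The metallothionein genes MT1E, MT1F, MT1G, MT1M, MT1X and MT2A, the metal-sensing transcription factor gene MTF1 and the zinc exporter gene SLC30A1 were measured in LX2, an immortalised line of hepatic stellate cells, the matrix-forming cells of the liver. The 8 genes were chosen by name from the 60612 genes of the deposited table. Of these, 7 passed the filter on low counts and were tested, and MT1G had a count of 0 in all 12 libraries.

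Metallothioneins are small, cysteine-rich proteins of the cytosol that bind zinc, copper and cadmium and so hold free zinc low. When free zinc rises, MTF1, a zinc finger protein, binds metal response elements, short motifs in promoters, and switches on metallothionein genes and SLC30A1, whose product carries zinc out of the cell across the plasma membrane. Several metallothionein genes are also known to respond to glucocorticoids and to oxidative stress, and in the liver they are best known from hepatocytes.

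Polyadenylated RNA was sequenced in 3 groups of 4 libraries, all of wild type LX2 cells whose serum was withdrawn for 16 h, starting 24 h after seeding. The groups were STINGX with TGFb (STINGX at 10 µM for 3 h, then the same TGFb treatment), TGFb alone (5 ng/ml for 16 h) and untreated control. TGFb is a cytokine that activates stellate cells. STINGX is a code-named compound, and because no group received it without the cytokine, it could only be compared on top of TGFb.

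Library totals ran from 54035320 to 70787741 estimated counts. Nothing in the labels ties the replicates to separate cultures, and p-values therefore reflect the spread between libraries, part of which may be technical. Of 10 stellate and fibroblastic marker genes 9 were detected, and DES was at 0 in every library. Their summed level was 6081 to 6566 CPM (counts scaled to a common library total) with STINGX and TGFb, 13001 to 13319 CPM with TGFb and 7426 to 7472 CPM in control. The hepatocyte markers ALB, APOA2, TTR and FGB were at 0 in every library, and all 10 hepatocyte markers summed to 3.85 to 4.36, 5.28 to 6.54 and 8.42 to 10.7 CPM in the same order of groups. Of 7 macrophage and leukocyte markers, the sum was 74.7 to 90.2 CPM with STINGX and TGFb, 30.2 to 35.6 CPM with TGFb and 72.8 to 80.8 CPM in control. Most of that sum was CD68, at 75.9, 24.4 and 59.6 CPM on average in those groups, and other markers of the list were ordered differently, with CD14 at 2.30, 2.42 and 15.7 CPM and CSF1R at 3.47, 6.03 and 1.24 CPM. The 5 cholangiocyte and epithelial markers, mainly KRT7 and SOX9, summed to 29.4 to 30.7, 56.7 to 65.1 and 44.7 to 48.8 CPM, and 6 endothelial markers to 11.01 to 13.6, 13.7 to 15.04 and 10.9 to 12.2 CPM. The part of these differences in the results on single genes was not tested. In bulk RNA, fewer cells with a transcript and less of it per cell cannot be told apart.

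The 6 metallothionein genes lie in 1 cluster on chromosome 16. In GRCh38 the cluster held 15 metallothionein genes and pseudogenes between 56565073 and 56684196, and 5 of these had no counts in any library (MT4, MT1CP, MT1B, MT1G and MT1H). MT2A lies at 56608584 to 56609497, MT1E at 56625475 to 56627112, MT1M at 56632659 to 56633981, MT1F at 56657731 to 56660698 and MT1X at 56682470 to 56684196, all on the plus strand. MT1G, at 56666730 to 56668065, is on the minus strand. MTF1 (37809574 to 37859592) and SLC30A1 (211571568 to 211579161) are both on the minus strand of chromosome 1. MT1X overlaps AC026461 on its own strand, which had no counts, and MTF1 overlaps AL929472 on the other strand, which had at most 4 counts in a library.

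RefSeq promoter windows (GRCh38.p14) were matched for 4 of the 8 genes, MT1X, MT2A, MTF1 and SLC30A1. They are shown because MT1X, MT2A and SLC30A1, textbook targets of MTF1, behaved differently from one another in these libraries. The 250 bases before the start are printed 5′ to 3′ along the gene's strand, at chr16:56682220-56682469 (plus strand) for MT1X, chr16:56608334-56608583 (plus strand) for MT2A and chr1:211579162-211579411 (minus strand) for SLC30A1. Capitals mark the core letters of a metal response element, TGCACNC or TGCGCNC, read on either strand.
MT1X: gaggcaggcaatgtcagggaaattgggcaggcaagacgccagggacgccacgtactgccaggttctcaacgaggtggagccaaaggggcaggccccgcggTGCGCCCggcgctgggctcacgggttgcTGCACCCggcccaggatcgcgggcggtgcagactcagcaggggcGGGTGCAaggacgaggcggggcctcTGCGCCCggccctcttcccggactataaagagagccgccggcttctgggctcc
MT2A: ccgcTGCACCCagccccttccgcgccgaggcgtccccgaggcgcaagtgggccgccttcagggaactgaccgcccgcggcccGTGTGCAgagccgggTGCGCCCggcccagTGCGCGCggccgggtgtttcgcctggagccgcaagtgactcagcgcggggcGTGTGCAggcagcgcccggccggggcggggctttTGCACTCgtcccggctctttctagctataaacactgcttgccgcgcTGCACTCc
SLC30A1: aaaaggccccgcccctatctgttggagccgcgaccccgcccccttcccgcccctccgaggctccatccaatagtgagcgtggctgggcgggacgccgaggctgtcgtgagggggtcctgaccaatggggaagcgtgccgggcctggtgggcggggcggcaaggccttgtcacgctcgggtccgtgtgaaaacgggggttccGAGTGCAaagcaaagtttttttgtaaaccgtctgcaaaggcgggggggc
In windows of 300 bases, from 250 before to 50 after the start, the core was found 4 times at MT1X, 8 times at MT2A and 2 times at SLC30A1, and not at MTF1. The last copy at MT2A and the second copy at SLC30A1 lie after the start and are not in the printed bases. Of 35116 promoter windows of the same length, 29.6% held at least 1 copy, 8.60% at least 2 copies, 0.601% at least 4 copies and 0.0199% at least 8 copies. A match of letters is a description and does not show binding.

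The coding sequences of the metallothioneins are close copies of each other, with 88.7% to 93.7% identity between pairs of the 6 genes. MT1E and MT1X are shown because their transcripts moved in opposite directions. Their coding sequences, from GENCODE 29 transcripts on GRCh38 chromosome 16, are 186 bases each and differ at 17 positions, which are in capitals.
MT1E: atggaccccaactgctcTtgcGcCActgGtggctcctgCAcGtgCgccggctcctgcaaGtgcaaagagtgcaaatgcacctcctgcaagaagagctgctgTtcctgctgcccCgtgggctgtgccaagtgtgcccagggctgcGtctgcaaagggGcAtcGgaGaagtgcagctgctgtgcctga
MT1X: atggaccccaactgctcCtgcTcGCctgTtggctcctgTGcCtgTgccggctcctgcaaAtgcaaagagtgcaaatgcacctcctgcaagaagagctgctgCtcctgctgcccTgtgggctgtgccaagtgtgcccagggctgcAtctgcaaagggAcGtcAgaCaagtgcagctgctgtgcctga
Whole transcripts, with their ends, were easier to tell apart. Of all stretches of 50 bases, 5.34% of those in the MT1E transcript and 16.0% of those in the MT1X transcript also occurred in another metallothionein transcript, but none of them was shared between MT1E and MT1X. The share was 3.59% for MT1F, 7.05% for MT1M, 4.88% for MT2A and 20.2% for MT1G. How read pairs from such stretches were divided is not given in the sources used here, so the split between family members carries that uncertainty.

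The first comparison set TGFb against control. MT1E, MT1F, MT1M and SLC30A1 fell with TGFb, and MT1X and MTF1 rose. MT2A was the 1 tested gene of the 7 that did not pass an adjusted p under 0.05 in edgeR's quasi-likelihood test with Benjamini-Hochberg adjustment over 21328 genes. Thus 2 genes were called higher and 4 lower, where 13.2% of all tested genes were called higher, 12.8% lower and 26.0% in either direction. MT1E, MT1F and MT1X changed at least 2-fold, as did 6.97% of all genes. The median log2 change of the 7 genes was -0.44, against 0.00 over all genes tested.

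With STINGX given before TGFb, and set against TGFb alone, MT1E, MT1F, MTF1 and SLC30A1 rose and MT1X fell, while MT1M and MT2A did not pass the test. Of all tested genes 13.7% were called higher, 13.8% lower and 27.5% in either direction. SLC30A1 was the 1 gene of the 8 to change at least 2-fold, which 6.19% of all genes did. The median log2 change of the 7 genes was 0.39. In the comparison of STINGX with TGFb against control, MTF1 and SLC30A1 were higher and MT1E was lower, beside 17.2% of all genes called higher, 17.0% lower and 34.2% in either direction. SLC30A1 again was the only one of the 8 past 2-fold, with 7.58% of all genes, and the median of the 7 was -0.21. The comparisons share libraries, so their values are given side by side and are not independent of each other.

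**Figure D1:**
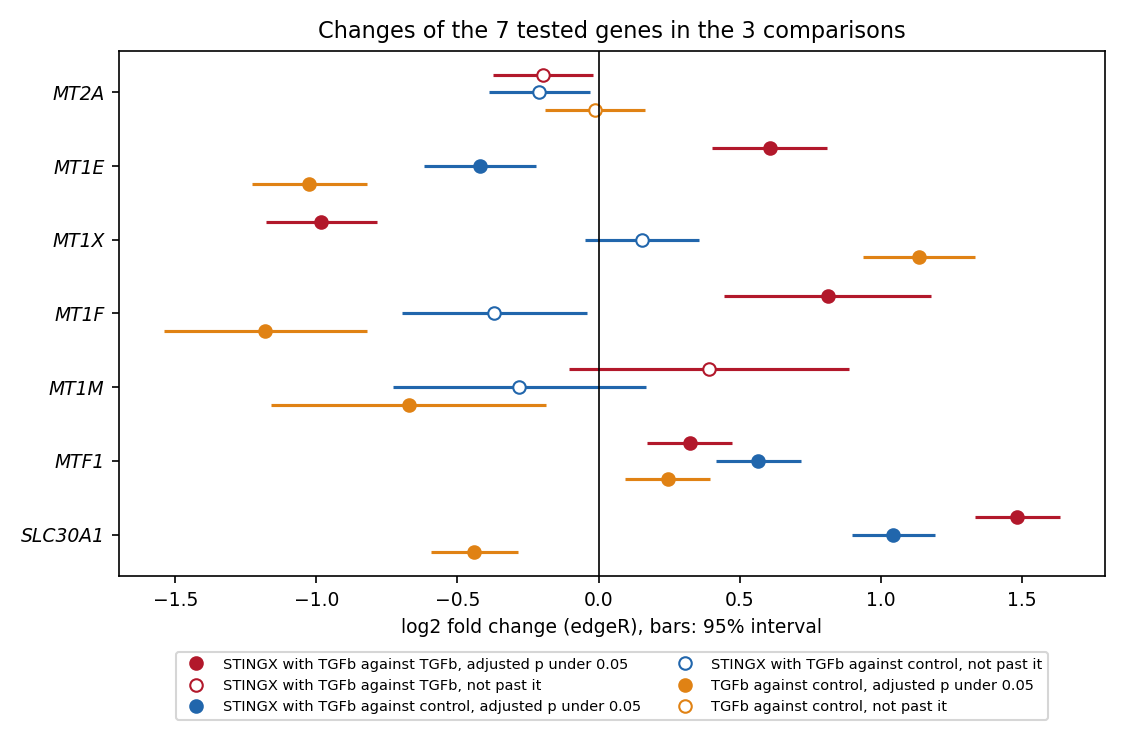
Log2 fold changes of the 7 tested genes in the 3 comparisons, with 95% intervals as bars. Filled points passed an adjusted p under 0.05, and open points did not. SLC30A1 had the largest change with STINGX and TGFb against TGFb (1.48), and MT1X (1.14) and MT1E (-1.03) lay on opposite sides of 0 for TGFb against control.

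Scaling by TMM balanced rises and falls over all genes. Of the calls above, the rise of MTF1 with TGFb was lost with library size alone and the others held. Over all genes, with TMM 2813 genes rose and 2730 fell for TGFb against control, 2931 and 2933 for STINGX with TGFb against TGFb, and 3670 and 3626 for STINGX with TGFb against control. With library size alone the split was 2224 and 3523, 4997 and 1890, and 4683 and 2876. The median log2 change of all genes for STINGX with TGFb against TGFb was 0.15 with library size alone and 0.01 with TMM.

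MT2A, the main metallothionein of most human tissues, dominated the family. Levels of different genes are compared in FPKM, fragments per kilobase at a common depth, which is per length. MT2A averaged 418.5 ± 4.25 FPKM with STINGX and TGFb, 436.2 ± 22.8 FPKM with TGFb and 457.8 ± 56.7 FPKM in control (SD, n = 4 each, as for all means here). It ranked 39 to 41, 41 to 45 and 35 to 43 among all genes of a library in those groups. MT1E followed at 44.0 ± 1.23 FPKM with STINGX and TGFb, 26.3 ± 1.01 FPKM with TGFb and 55.7 ± 8.13 FPKM in control. The other MT1 genes stayed near or under 10 FPKM in every group.

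By library, MT2A had 432, 442, 426 and 431 CPM with STINGX and TGFb, against 502, 526, 501 and 457 CPM with TGFb. The 4 control libraries had 532, 587, 445 and 439 CPM. In these TMM-adjusted values the STINGX libraries lay below all TGFb libraries. The control libraries spread across both, with control replicates 1 and 2 highest. MT2A had a log2 change of -0.01 ± 0.08 SE for TGFb against control (95% interval -0.19 to 0.17, edgeR adjusted p = 0.939). For STINGX with TGFb it was -0.20 ± 0.08 against TGFb (interval -0.38 to -0.02, edgeR adjusted p = 0.0952) and -0.21 ± 0.08 against control (interval -0.39 to -0.03, edgeR adjusted p = 0.0668). Intervals are not adjusted for the number of genes, so they can leave out 0 where the adjusted p misses the threshold. On FPKM the MT2A values of the STINGX and TGFb libraries overlapped. MT2A passed against TGFb with only the groups compared in the fit, with the replicate block and without control replicate 2. Against control it passed with upper quartile scaling, the filter of 1 CPM in 4 libraries, the replicate block and without control replicate 3 or 4.

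MT1E, a widely expressed metallothionein of the MT1 group, was lowest with TGFb. It had 51.3, 51.6, 53.3 and 53.6 CPM with STINGX and TGFb, 34.2, 34.5, 36.0 and 33.0 CPM with TGFb and 71.7, 85.7, 61.7 and 61.3 CPM in control. The 3 groups did not overlap, and the STINGX libraries stood between the others. The log2 change was -1.03 ± 0.09 SE for TGFb against control (edgeR adjusted p = 3.67e-06), 0.61 ± 0.09 for STINGX with TGFb against TGFb (edgeR adjusted p = 0.000332) and -0.42 ± 0.09 for STINGX with TGFb against control (edgeR adjusted p = 0.00335). These groups of 4 libraries did not overlap for 27.1%, 31.6% and 34.5% of all genes in the same comparisons.

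MT1F, another metallothionein of the cluster, had 7.21, 7.22, 6.86 and 6.72 CPM with STINGX and TGFb, 5.22, 3.11, 4.67 and 2.92 CPM with TGFb and 9.61, 10.1, 8.85 and 7.66 CPM in control. Its order of groups was that of MT1E, with no overlap. It fell with TGFb by 1.18 ± 0.17 SE on the log2 scale (edgeR adjusted p = 0.000163) and rose with STINGX and TGFb relative to TGFb (0.81 ± 0.17, edgeR adjusted p = 0.00295). For STINGX with TGFb against control the value was -0.37 ± 0.15 (interval -0.70 to -0.04, edgeR adjusted p = 0.0786). This last value passed with upper quartile scaling, with only these groups in the fit (adjusted p = 0.0226) and without control replicate 4 or TGFb replicate 1.

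MT1M, a low metallothionein here, had 2.85, 3.84, 2.62 and 2.70 CPM with STINGX and TGFb, 1.93, 1.59, 3.00 and 2.77 CPM with TGFb and 4.12, 4.45, 3.22 and 2.90 CPM in control. The groups overlapped in CPM in every comparison, while on FPKM the TGFb libraries lay below all control libraries. MT1M fell with TGFb by 0.67 ± 0.22 SE on the log2 scale (edgeR adjusted p = 0.0435), and this call was lost in 10 of 24 other settings. These were the fits without any 1 of 7 libraries (replicates 1 or 2 of control, 1 or 2 of TGFb, and 1, 3 or 4 of STINGX with TGFb), with adjusted p from 0.0525 to 0.124, the older quasi-likelihood form (0.0522), only these groups in the fit (0.0629) and the replicate block (0.0827). For STINGX with TGFb it had 0.39 ± 0.23 against TGFb (interval -0.11 to 0.89, edgeR adjusted p = 0.239) and -0.28 ± 0.21 against control (interval -0.73 to 0.17, edgeR adjusted p = 0.329).

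MT1X, the metallothionein nearest to the end of the cluster, moved the other way. It had 10.4, 10.9, 11.2 and 11.8 CPM with STINGX and TGFb, 23.3, 21.9, 19.3 and 22.7 CPM with TGFb and 11.2, 9.99, 8.62 and 9.90 CPM in control. Every TGFb library exceeded every other library, while the STINGX and control libraries overlapped. MT1X rose with TGFb by 1.14 ± 0.09 SE on the log2 scale, or 2.20-fold (edgeR adjusted p = 1.10e-06), and fell with STINGX and TGFb relative to TGFb by 0.98 ± 0.09 (edgeR adjusted p = 3.66e-06). For STINGX with TGFb against control the log2 change was 0.15 ± 0.09 (interval -0.05 to 0.36, edgeR adjusted p = 0.232), and it passed on log2(FPKM + 1) after a filter on low values (adjusted p = 0.0404) and on log2(FPKM + 0.1) (adjusted p = 0.0368).

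MT1G, a metallothionein on the minus strand between MT1F and MT1X, had no count in any library. A count of 0 allows up to 3 counts, which is 0.0424 to 0.0555 CPM in a library, so levels under that were not detectable at this depth.

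**Figure D2:**
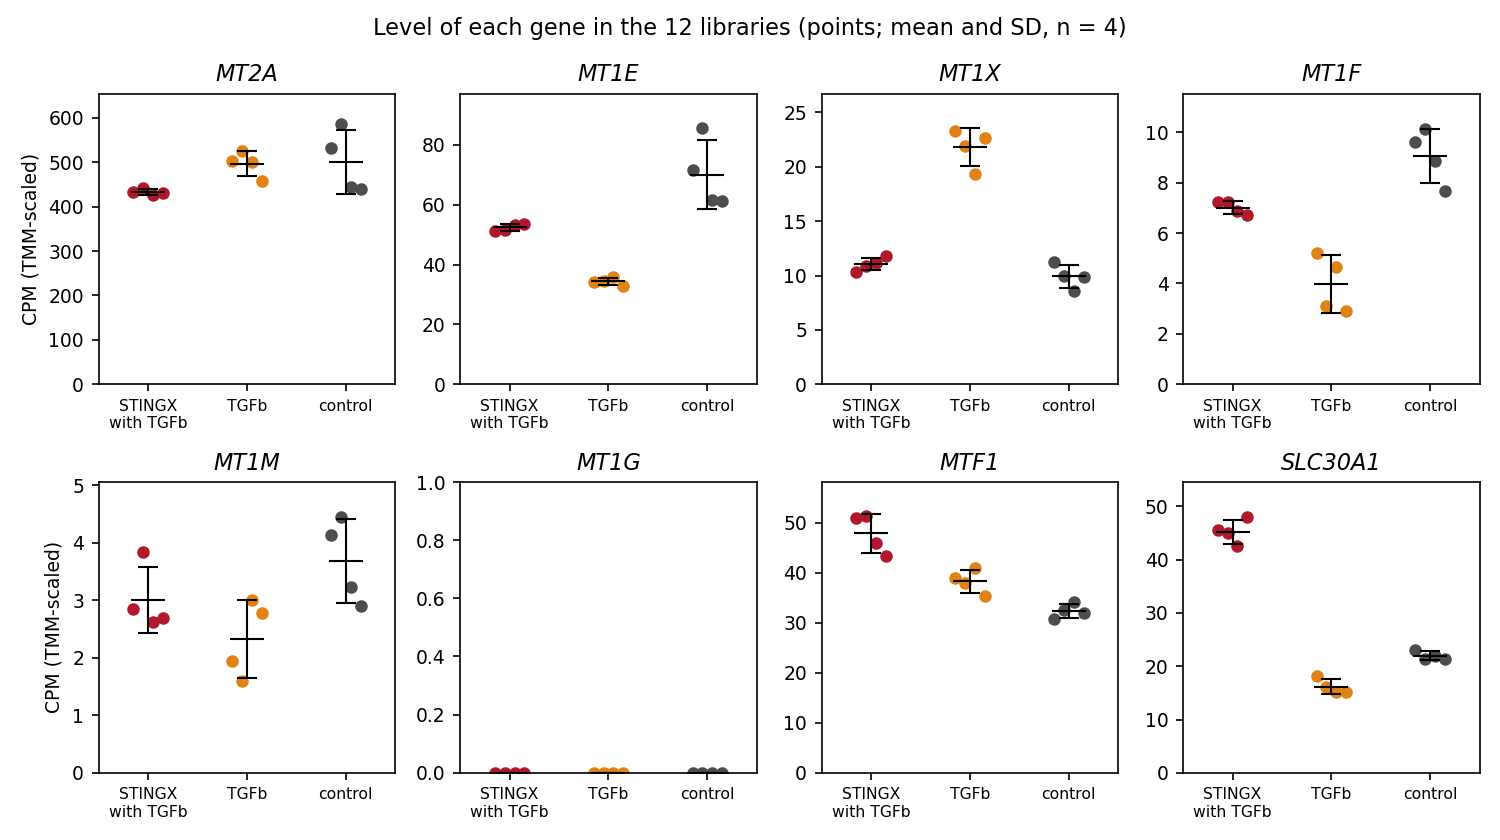
Level of each of the 8 genes in the 12 libraries, in CPM scaled by TMM. Each point is a library, and the bars are the mean and SD of 4 libraries. TGFb libraries were highest for MT1X and lowest for MT1E, MT1F and SLC30A1, and MT1G was at 0 throughout.

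All metallothionein genes and pseudogenes together came to 479.6 ± 4.96 FPKM with STINGX and TGFb, 483.9 ± 23.2 FPKM with TGFb and 533.2 ± 66.4 FPKM in control. MT2A held 87.3 ± 0.250%, 90.1 ± 0.448% and 85.9 ± 0.293% of it in those groups. Without MT2A the sum was 61.0 ± 1.46 FPKM with STINGX and TGFb, 47.7 ± 1.30 FPKM with TGFb and 75.4 ± 9.91 FPKM in control.

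Of that remainder, MT1E made up 72.1 ± 1.62% with STINGX and TGFb, 55.0 ± 1.37% with TGFb and 73.7 ± 1.36% in control. MT1X made up 9.24 ± 0.357%, 21.2 ± 1.95% and 6.42 ± 0.798%. The ratio of MT1X to MT1E in FPKM was 0.128 ± 0.00442 with STINGX and TGFb, 0.387 ± 0.0425 with TGFb and 0.0873 ± 0.0123 in control. A ratio within a library does not depend on how libraries were scaled, and the TGFb libraries stood apart from both other groups in it.

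**Figure D3:**
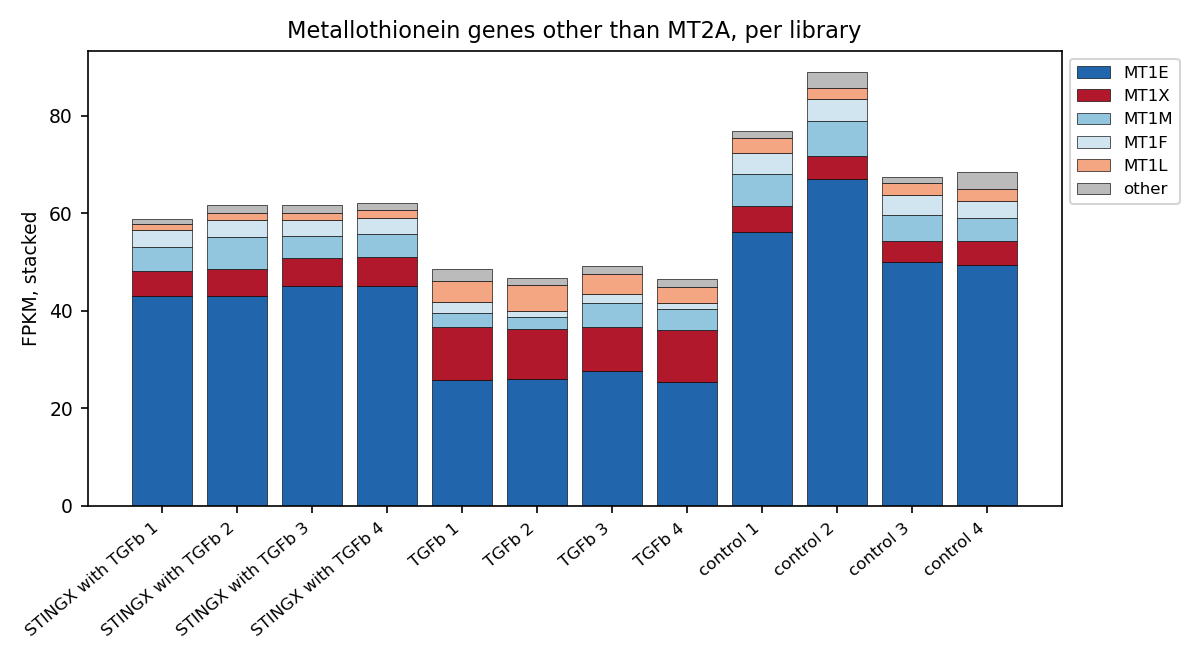
FPKM of the metallothionein genes other than MT2A, stacked for each of the 12 libraries. The MT1E part is smallest and the MT1X part largest in the 4 TGFb libraries, and control replicates 1 and 2 have the tallest stacks.

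From the MT2A start along the cluster, MT2A was not called for TGFb against control, MT1E (16.891 kb), MT1M (24.075 kb) and MT1F (49.147 kb) were lower with TGFb and MT1X (73.886 kb) was higher. MT1L, a transcribed pseudogene 8.892 kb from the MT2A start and named here after its values were seen, was under 3 CPM in every library. It rose with TGFb (log2 change 0.77 ± 0.18 SE, edgeR adjusted p = 0.00661) and was lower with STINGX and TGFb than with TGFb (-1.65 ± 0.20, edgeR adjusted p = 4.74e-05) and than in control (-0.87 ± 0.22, edgeR adjusted p = 0.00755). MT1L lies between MT2A and MT1E. Of the 15 other metallothionein genes and pseudogenes listed, 14 were found by symbol and 3 passed the filter on low counts. MT1L was the only one of the 3 called, and MT1A and MT2P1 were called in none of the comparisons.

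**Figure D4:**
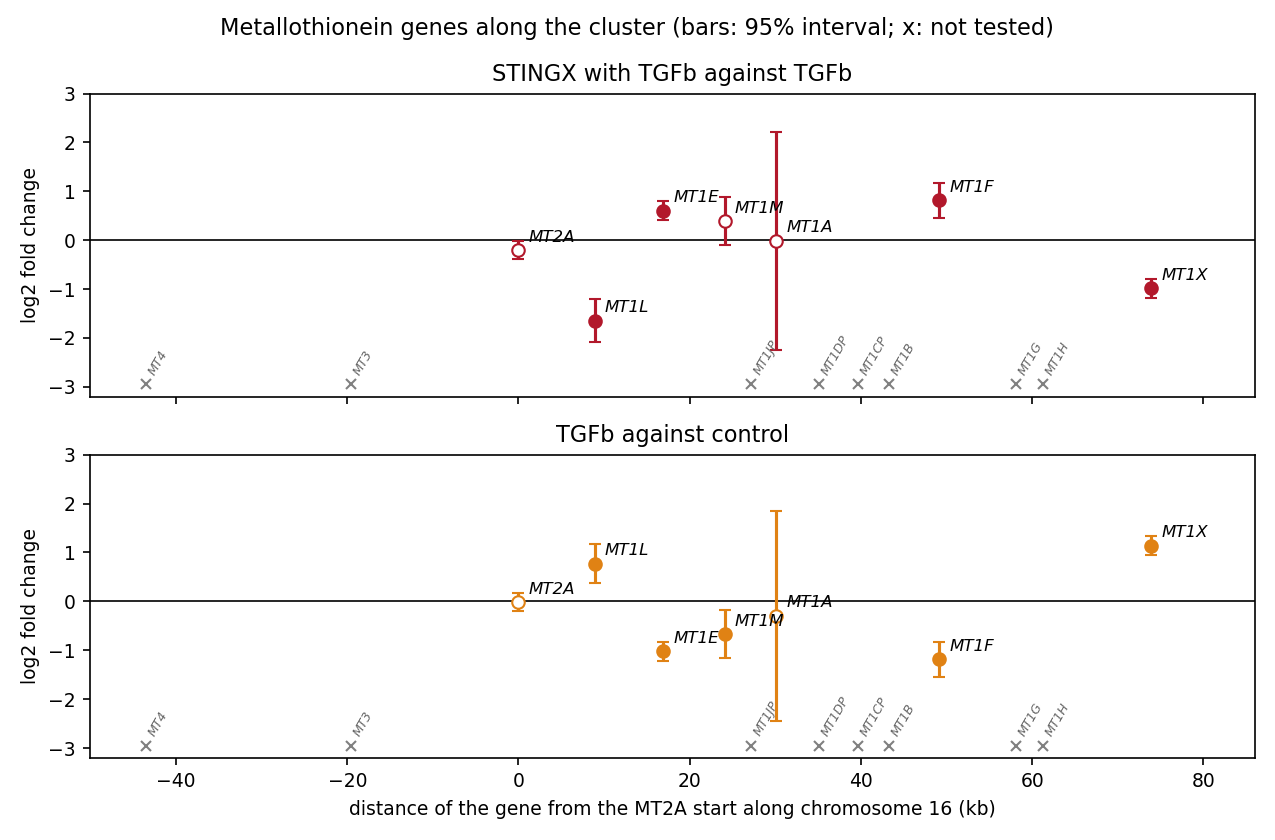
Log2 fold change of the metallothionein genes of the chromosome 16 cluster against distance in kb from the MT2A start, for STINGX with TGFb against TGFb (upper panel) and TGFb against control (lower panel). Bars are 95% intervals, filled points passed an adjusted p under 0.05, and crosses mark genes that were not tested. MT1L and MT1X lie above 0 and MT1E, MT1M and MT1F below 0 in the lower panel, and all 5 lie on the other side in the upper panel, where MT1M is not called.

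At the level of transcripts, each gene with counts was read mainly from 1 coding transcript in every group. MT2A-201 took 97.4 ± 0.0957% of the MT2A counts with STINGX and TGFb, 97.7 ± 0.304% with TGFb and 97.9 ± 0.213% in control. MT1E-201 took 87.9 ± 0.469%, 87.2 ± 2.03% and 88.9 ± 1.65% of the MT1E counts in those groups. MT1M-201 took 96.8 ± 0.864%, 95.5 ± 1.32% and 96.0 ± 1.55% of the MT1M counts. These shares differed by less than 2 percentage points between groups.

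MT1X-201 took 78.9 ± 3.95% of the MT1X counts with STINGX and TGFb, 82.3 ± 0.939% with TGFb and 84.4 ± 5.28% in control. Its transcript MT1X-203, annotated as a target of nonsense-mediated decay, took 10.3 ± 2.92%, 7.02 ± 1.68% and 3.49 ± 4.23%, with 2 control libraries at 0. The coding transcript alone had 623, 600, 562 and 620 counts with STINGX and TGFb, 1164, 1047, 824 and 979 counts with TGFb and 626, 557, 441 and 565 counts in control, so the TGFb libraries were highest in it as in the whole gene. MT1F-201, the main coding transcript of MT1F, took 91.5 ± 2.13%, 80.0 ± 12.9% and 87.7 ± 3.62% of its counts in those groups. Its lowest share in a TGFb library was 62.5%. MT1F-202, a transcript with a retained intron, took 5.29 ± 0.824% of the MT1F counts with STINGX and TGFb, 16.4 ± 8.80% with TGFb and 7.55 ± 2.93% in control. The MT1F-202 shares rest on 17 to 75 counts a library, and no test was run on the shares of either transcript. All SLC30A1 counts were in its 1 annotated transcript, and all MTF1 counts in its coding transcript except 17 and 12 counts in STINGX with TGFb replicates 2 and 3.

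MTF1, the metal-sensing activator of metallothionein genes, was highest with STINGX and TGFb. It had 51.0, 51.4, 46.0 and 43.3 CPM with STINGX and TGFb, 39.0, 37.9, 41.1 and 35.4 CPM with TGFb and 30.8, 32.6, 34.2 and 32.0 CPM in control. The groups did not overlap in CPM, and on FPKM TGFb and control overlapped. With STINGX and TGFb it rose by 0.32 ± 0.07 SE on the log2 scale relative to TGFb (edgeR adjusted p = 0.00352) and by 0.57 ± 0.07 relative to control (edgeR adjusted p = 3.65e-05). The rise with TGFb, 0.24 ± 0.07 (edgeR adjusted p = 0.0201), was lost with library size alone (0.18, adjusted p = 0.0812), on FPKM and without control replicate 1, TGFb replicate 1 or TGFb replicate 3 (adjusted p from 0.0501 to 0.0631).

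SLC30A1, the exporter that lowers zinc in the cell, had the largest change of the 8 genes with STINGX and TGFb, against TGFb and against control. For TGFb against control MT1E, MT1F, MT1M and MT1X changed more. It had 45.5, 45.0, 42.6 and 48.0 CPM with STINGX and TGFb, 18.1, 16.2, 15.1 and 15.2 CPM with TGFb and 23.1, 21.3, 22.0 and 21.4 CPM in control. No group overlapped another. SLC30A1 was 2.80-fold higher with STINGX and TGFb than with TGFb (95% interval 2.52 to 3.11, log2 change 1.48 ± 0.07 SE, edgeR adjusted p = 6.85e-09). It was 2.06-fold higher than in control (interval 1.86 to 2.28, log2 change 1.04 ± 0.07, edgeR adjusted p = 1.28e-07). With TGFb against control it fell by 0.44 ± 0.07 on the log2 scale (edgeR adjusted p = 0.000477). Per length it was lower than MT1E, at 6.79 ± 0.321 FPKM with STINGX and TGFb, 2.20 ± 0.173 FPKM with TGFb and 3.12 ± 0.120 FPKM in control.

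Among all zinc transporters tested, SLC30A1 had the largest change for STINGX with TGFb against TGFb. For TGFb against control SLC39A8 (log2 change -0.97), SLC39A10 (0.75) and SLC39A11 (-0.45) were called with changes larger in size than that of SLC30A1 (-0.44), and for STINGX with TGFb against control SLC30A6 (1.06) was level with it (1.04). SLC39A8 and SLC39A11 are named after their values were seen. Of the 9 exporter genes SLC30A2 to SLC30A10, 6 were tested. With TGFb against control 1 rose (SLC30A7), with STINGX and TGFb against TGFb 1 rose (SLC30A5), and with STINGX and TGFb against control 3 rose (SLC30A5, SLC30A6 and SLC30A7), and none fell. The shares of all tested genes called higher were 13.2%, 13.7% and 17.2%. The SLC30A5 call for STINGX with TGFb against TGFb was lost, leaving 0, with no filter on low counts, with the replicate block, and on leaving out replicate 1, 3 or 4 of TGFb or replicate 2, 3 or 4 of STINGX with TGFb, while 3 rose with library size alone and on filtered FPKM. For TGFb against control 2 rose with DESeq2, with the filter of 1 CPM in 4 libraries and without control replicate 1 or replicate 2 of STINGX with TGFb, and 3 when replicate 1 of STINGX with TGFb was left out. Their median log2 changes were 0.20, 0.11 and 0.32, against medians of all genes within 0.01 of 0. SLC30A6, a carrier of zinc into the Golgi apparatus, had 75.8 ± 16.7 CPM with STINGX and TGFb, 56.7 ± 5.51 CPM with TGFb and 36.4 ± 13.3 CPM in control. Its log2 change with STINGX and TGFb was 1.06 ± 0.23 SE against control (edgeR adjusted p = 0.00429) and 0.42 ± 0.23 against TGFb (edgeR adjusted p = 0.209). SLC30A6 overlaps the tested pseudogene DDX50P1 on its own strand, so its counts are uncertain.

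Of the 14 importer genes SLC39A1 to SLC39A14, which carry zinc into the cytosol, 12 were tested. In each comparison 3 rose and 2 fell, where 26.0%, 27.5% and 34.2% of all tested genes were called in the order given next. With TGFb against control SLC39A6, SLC39A7 and SLC39A10 rose and SLC39A8 and SLC39A11 fell, with a median of 0.18 over the 12. With STINGX and TGFb against TGFb SLC39A6, SLC39A8 and SLC39A11 rose and SLC39A3 and SLC39A10 fell, with a median of -0.04, which was 0.10 with library size alone, where 4 rose and 1 fell. With STINGX and TGFb against control SLC39A6, SLC39A7 and SLC39A11 rose and SLC39A8 and SLC39A10 fell, with a median of -0.11. That last median changed sign without control replicate 2 (0.15) and in each FPKM setting (0.03, 0.05 and 0.01), and stayed below 0 in the other settings.

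SLC39A10, an importer of the plasma membrane, had 21.2, 21.2, 22.9 and 23.9 CPM with STINGX and TGFb, 33.4, 59.8, 52.2 and 62.3 CPM with TGFb and 30.4, 30.9, 30.6 and 32.0 CPM in control. The groups did not overlap, although TGFb replicate 1 lay close to control. The log2 change was -1.22 ± 0.15 SE for STINGX with TGFb against TGFb (edgeR adjusted p = 6.76e-05), 0.75 ± 0.15 for TGFb against control (edgeR adjusted p = 0.00274) and -0.47 ± 0.15 for STINGX with TGFb against control (edgeR adjusted p = 0.0312). The last of these did not pass in 12 of 24 other settings, with adjusted p from 0.0583 to 0.190. Several importers varied widely within groups, such as SLC39A14, which lay between 240.4 and 519.8 CPM with STINGX and TGFb, between 204.5 and 535.7 CPM with TGFb and between 188.4 and 531.4 CPM in control.

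**Figure D5:**
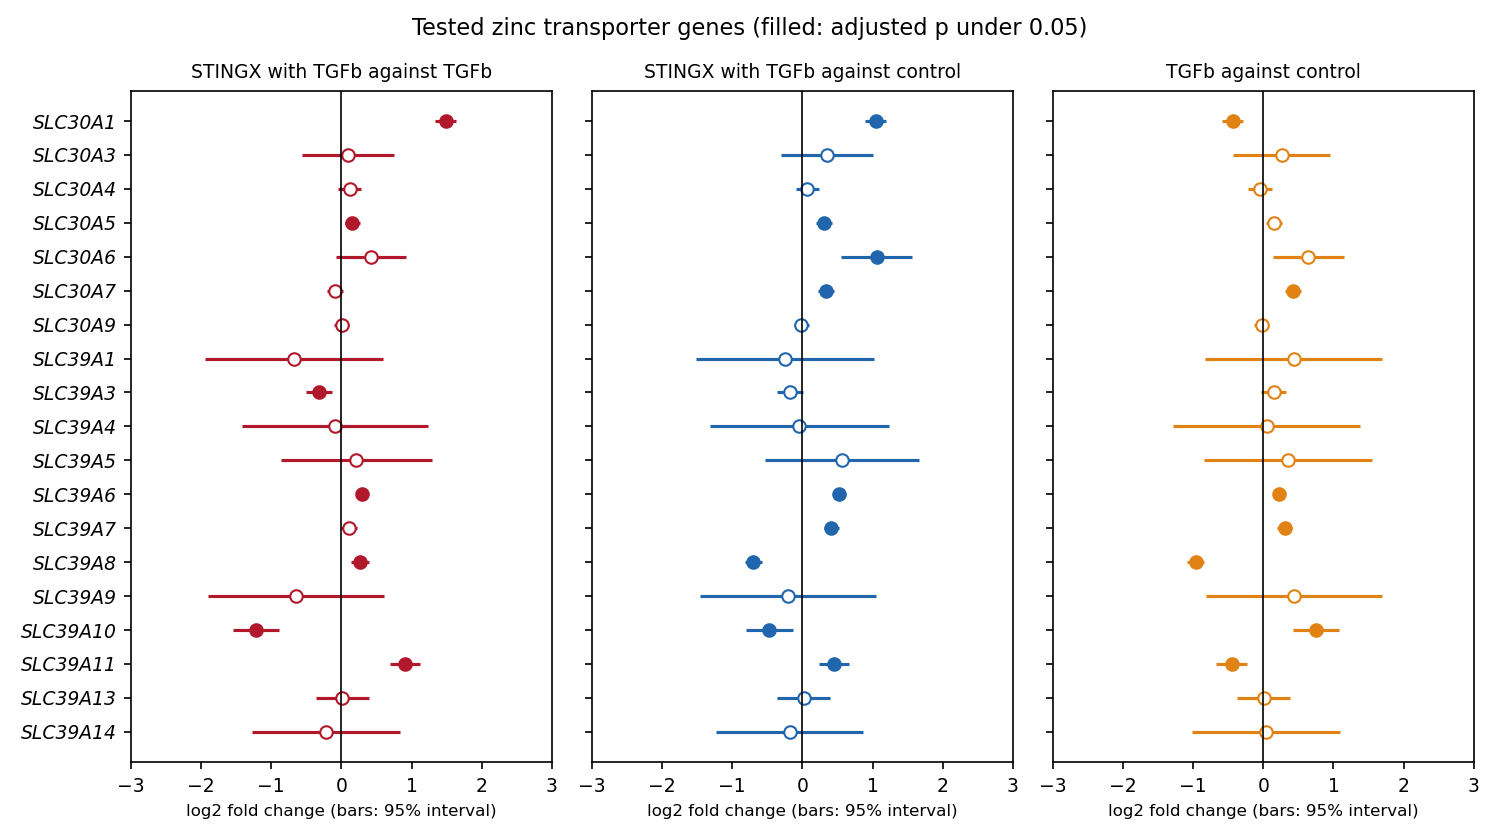
Log2 fold changes of SLC30A1 and of the 6 other exporters (SLC30A) and 12 importers (SLC39A) tested, in 3 comparisons, with 95% intervals as bars and filled points for an adjusted p under 0.05. SLC30A1 lies farthest above 0 in the panel of STINGX with TGFb against TGFb (1.48), where SLC39A10 lies farthest below among called genes (-1.22).

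Of 13 genes of copper handling, the other metal that metallothioneins hold, 3 rose and none fell with TGFb against control, 3 rose and none fell with STINGX and TGFb against TGFb, and 3 rose and 1 fell with STINGX and TGFb against control. In either direction, 26.0%, 27.5% and 34.2% of all tested genes were called in these comparisons. The copper importer SLC31A1 was called higher in all 3, with log2 changes of 0.24 ± 0.05 SE, 0.31 ± 0.05 and 0.55 ± 0.05 in that order (edgeR adjusted p = 0.00237, 0.000302 and 1.85e-06). It is named after its values were seen. The list's medians were -0.04, 0.08 and 0.06. Over 24 other settings 2 to 4 rose and 0 to 4 fell for TGFb against control, and 2 to 3 rose and 0 to 1 fell for STINGX with TGFb against TGFb. For STINGX with TGFb against control 2 to 5 rose and 0 to 1 fell. The last fall was lost with library size alone, in each FPKM setting, and without control replicate 2 or STINGX with TGFb replicate 2. Library size alone gave 3 rises and 4 falls for TGFb against control. In that comparison 3 fell with upper quartile scaling and in each FPKM setting. A single fall appeared with the filter of 1 CPM in 4 libraries and without control replicate 4.

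Of 10 genes listed as glucocorticoid receptor targets, which share an inducer with the metallothioneins and include the receptor gene NR3C1, 9 were tested. With TGFb against control 1 rose and 2 fell, with STINGX and TGFb against TGFb 3 rose and 2 fell, and with STINGX and TGFb against control 2 rose and 2 fell. Over all tested genes 26.0%, 27.5% and 34.2% were called in either direction. CEBPD, a transcription factor, had 5.27 ± 0.170 CPM with STINGX and TGFb, 8.88 ± 1.90 CPM with TGFb and 45.0 ± 2.65 CPM in control. It fell by 2.33 ± 0.12 SE on the log2 scale with TGFb against control (edgeR adjusted p = 1.95e-08) and by 0.76 ± 0.14 with STINGX and TGFb against TGFb (edgeR adjusted p = 0.00108). DUSP1, a phosphatase of MAP kinases, rose instead, by 0.85 ± 0.05 with TGFb against control (edgeR adjusted p = 1.04e-07) and by 0.34 ± 0.05 with STINGX and TGFb against TGFb (edgeR adjusted p = 0.000294). Over 24 other settings the counts of this list ran from 1 to 3 rises and 2 to 3 falls for TGFb against control, where 2 rose without STINGX with TGFb replicate 2 or 4, 2 to 3 rises and 1 to 3 falls for STINGX with TGFb against TGFb, and 2 rises and 2 to 3 falls for STINGX with TGFb against control. The medians of the list were -0.10, -0.08 and -0.18, the second being 0.06 with library size alone.

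Oxidative stress genes rose together with STINGX. Of 7 such genes, targets of the transcription factor NRF2, 7 rose in each comparison of STINGX with TGFb, against TGFb (median log2 change 0.91) and against control (0.92). There 13.7% and 17.2% of all tested genes were called higher. With TGFb against control 3 rose and 3 fell (median 0.07). Over 24 other settings 7 rose against control throughout. Against TGFb 6 rose without TGFb replicate 3 or 4 or STINGX with TGFb replicate 3, and 7 otherwise. For TGFb against control 1 to 3 rose and 2 to 3 fell. HMOX1, heme oxygenase 1, averaged 123.3 ± 4.28 CPM with STINGX and TGFb, 22.7 ± 2.14 CPM with TGFb and 27.5 ± 3.08 CPM in control (log2 change 2.45 ± 0.09 SE for STINGX with TGFb against TGFb, edgeR adjusted p = 5.01e-10). NQO1, a quinone reductase, averaged 71.6 ± 0.475, 23.7 ± 4.11 and 37.7 ± 3.83 CPM in those groups (1.60 ± 0.11, edgeR adjusted p = 1.81e-07). SLC7A11, the cystine importer, averaged 84.0 ± 2.34, 25.8 ± 1.59 and 24.7 ± 2.19 CPM (1.70 ± 0.07, edgeR adjusted p = 1.64e-09), and it overlaps SLC7A11-AS1 on the other strand. GCLM, a subunit of the enzyme that starts glutathione synthesis, averaged 78.0 ± 2.28, 59.3 ± 4.45 and 27.9 ± 2.10 CPM (0.39 ± 0.07, edgeR adjusted p = 0.000571). Of the metallothioneins, MT1E and MT1F were called in the same direction as these genes for STINGX with TGFb against TGFb, MT1X in the opposite one, and none of the 6 was called higher against control.

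The genes most like MT2A and SLC30A1 over the 12 libraries were found by Pearson r of log2 CPM among 12976 genes, as a description, since the libraries share 3 groups. For SLC30A1 they were TFPI2 (r = 0.991), RPLP0P2 (0.990), FBXL4 (0.989), NUCB2 (0.989) and DSEL (0.987). TFPI2, a serine protease inhibitor of the matrix, averaged 829.2 ± 27.1 CPM with STINGX and TGFb, 312.6 ± 17.9 CPM with TGFb and 407.0 ± 12.3 CPM in control, the same order of groups as SLC30A1. For MT2A they were CHCHD2 (r = 0.972), PSMD8 (0.971), RPL35 (0.965), RPS2P5 (0.947, which overlaps TAOK3 on the other strand) and EPN1 (0.940). PSMD8, a proteasome subunit, averaged 167.4 ± 1.30 CPM with STINGX and TGFb, 184.1 ± 9.70 CPM with TGFb and 188.7 ± 21.4 CPM in control, with a wide spread in control like that of MT2A.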

How the data were processed

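The sources name 12 libraries of polyadenylated RNA from a stranded TruSeq protocol, read at both ends on a NovaSeq instrument, per the labels' protocols. The submitters' processing notes name cutadapt, HISAT2, StringTie and edgeR, without versions, and GRCh38. What each tool did, and whether counting used strand, is not given in the sources used here. Both gene and transcript tables hold estimated counts, deposited as whole numbers. The authors also deposited FPKM values, where 0.0001 stands for a count of 0. FPKM was used to compare genes and as an alternative.

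Estimated counts of 60612 genes were filtered by filterByExpr (minimum count 10, minimum total 15), which left 21328, scaled by TMM and tested with edgeR 4.0.16 in R 4.3.3 (quasi-likelihood F test, legacy = FALSE, robust, all 12 libraries in 1 fit with 9 residual degrees of freedom, Benjamini-Hochberg over all tested genes, adjusted p under 0.05). Each SE was obtained as the absolute log2 change divided by the root of F. Alternatives were DESeq2 1.42.0, limma 3.58.1 (voom, and log2 FPKM with a pseudocount of 1 or 0.1), library size alone, upper quartile scaling, other filters, the older quasi-likelihood form, only the groups compared, a replicate block and leaving out each library. The scripts were tested on simulated counts that spread less between libraries than these data, so that test does not give the error rates here. Within groups, every pair of libraries differed beyond counting error (chi-square over its degrees of freedom, 38.4 to 80.8). Limits at a count of 0 cover counting error only. Promoters came from RefSeq and coding sequences from GENCODE 29, read with Biopython 1.88.

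The 8 genes and the lists were chosen with earlier results of these data known. Named beside them are list genes past the threshold, at least 2-fold changed and with a mean of at least 2 CPM, up to 4 a list, and the 5 genes most like MT2A and SLC30A1. Of 106 list and marker genes, 105 were matched by symbol.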

Additional observations from a re-analysis of the deposited data

Results flagged for a closer look

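SLC30A6, a carrier of zinc into the Golgi apparatus, had 1 control library far from the others. Control replicate 1 had 56.3 CPM, against 28.3, 29.2 and 31.9 CPM in the other 3, and its gap to the next library was 0.869 of the group's range, above Dixon's 95% critical value for 4 libraries. It was the only one flagged of 48 groups of 4 libraries examined. Those include the MT1G groups, which were at 0 throughout and could not be flagged. For the other groups chance gives about 1 in 20. Without that library the log2 change of SLC30A6 for TGFb against control was 0.93 (edgeR adjusted p = 0.00185), where it was 0.64 with all libraries (adjusted p = 0.0656).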

How the results depend on the processing

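Each gene's change was recomputed under 24 other settings. Of 504 values of the 7 tested genes, 469 kept their direction and their side of the threshold, and every call for MT1E, MT1F, MT1X and SLC30A1 reported above held in all 24. MT2A for TGFb against control ran from -0.0706 to 0.0734 with 1 library left out and changed sign, to 4.73e-05 with limma-voom, 0.02 without control replicate 1, 0.0734 without control replicate 2 and 0.03 without TGFb replicate 4 (adjusted p of 0.495 or more in each). For STINGX with TGFb against control, 5 genes passed in place of 3 with upper quartile scaling and without control replicate 4, MT1F and MT2A being added in both. With 1 library left out, 4 to 6 genes passed for TGFb against control, 5 to 6 for STINGX with TGFb against TGFb and 3 to 5 for STINGX with TGFb against control, and over all genes 4850 to 5342, 5056 to 5913 and 6418 to 7236.

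MT2A passed for STINGX with TGFb against TGFb with only these groups in the fit (adjusted p = 0.00541), with the replicate block (0.0487) and without control replicate 2 (0.0335). Against control it passed with upper quartile scaling (0.0228), the filter of 1 CPM in 4 libraries (0.0456), the replicate block (0.0368) and without control replicate 3 (0.0259) or 4 (0.0207). The cause was not tested. No pairing by replicate number was seen over all genes. Deviations of same-numbered libraries correlated at -0.04 to 0.05 over 12 pairs, and those of other libraries at -0.04 to 0.04 over 36 pairs. A correlation over all genes cannot exclude a shared effect on single genes. With the numbers as a block 5, 6 and 4 of the 7 genes passed, MT1M for TGFb against control being lost (adjusted p = 0.0827), and 5316, 5647 and 7116 of all genes. At this depth MT1M and MT1F, the lowest of the 7 genes in CPM, had the widest intervals of the 7 genes.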
